A study of Mus musculus with 26 samples.

Results

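The cytoplasmic ribosomal protein genes encode the protein subunits of the ribosome outside mitochondria. They were taken by symbol, as every probe whose platform symbol begins with Rpl or Rps and a digit, or is Rpsa, Rplp0, Rplp1 or Rplp2, leaving out the S6 kinases, pseudogenes and like-genes. The rule gave 77 of 25697 probes and 60 genes. Of these, 55 genes had a detected probe among the 10660 genes tested. They comprise 54 subunits and Rps19bp1, which binds Rps19 and is not itself a subunit. A probe counted as detected when both arrays of at least 1 line detected it. No probe of Rpl6, Rpl17, Rplp2, Rps23 and the retrogene Rps23rg1 met this; those of Rpl6 and Rplp2 were detected on 1 of 26 arrays and the others on 0, so no level is given for these genes.

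Total RNA of 13 mouse cell lines, all on the OG2 background, was measured on Illumina BeadChips, with 2 technical arrays (a and b) per line. Germline stem cells (GSC, 2 lines) are self-renewing cells of the male germ line kept in culture. The germ line gave both sets of pluripotent lines with several members: lines reprogrammed from GSCs (induced pluripotent stem cells or iPSC, 4 lines) and germline-derived pluripotent stem cells (gPSC, 4 lines), whose route of derivation the labels do not state. An embryonic stem cell line (ESC), a fibroblast line and an induced pluripotent line made from fibroblasts (Fib-iPSC) were 1 line each. The design text counts 12 lines and leaves the fibroblasts out. The series concerns epigenetic memory in reprogrammed cells. The 2 arrays of a line were averaged and the line is the unit of every test; nothing in the labels says how the lines of a group were separated, so p-values measure the spread between these lines.

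Ribosomal proteins are made in matched amounts, because each ribosome carries a single copy of nearly every one. Small-subunit (Rps) proteins surround the mRNA and the decoding site, and large-subunit (Rpl) proteins surround the peptide exit tunnel, the stalk that recruits translation factors, and the 5S RNA. Their mRNAs begin with a tract of pyrimidines, through which mTOR signalling controls their translation, so an mRNA level is not a rate of protein synthesis.

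Levels are given on a log2 scale of normalized intensity, on which the brightest probe reads 14.20 on every array and the detection floor lies near 4.63. Levels of different probes cannot be set against each other. The 8 pluripotency markers averaged 9.76 to 11.12 in the 10 pluripotent lines and 6.46 and 6.16 in the GSC lines. Of these, Tdgf1 read 4.28 in gPSC 3, 4.39 in gPSC 4 and 4.32 in Fib-iPSC, as low as in GSC (4.47 and 4.44). Dppa5a (10.11 and 9.84) and Pou5f1 (9.74 and 7.94) were well above the floor in GSC. The 7 measured germline stem cell markers averaged 8.88 and 9.03 in GSC and 5.36 to 7.03 in the pluripotent lines, with iPSC 3 highest. Etv5 of this list went the other way, at 5.35 and 6.23 in GSC and 7.02 to 8.53 in the pluripotent lines. The 8 measured fibroblast and feeder markers averaged 8.81 in gPSC 1 and 8.75 in the fibroblast line, against 4.89 to 7.38 in the 11 other lines. The 2 lines did not share a marker profile. Dcn, Lum and Pdgfra were higher in gPSC 1 (Dcn 11.68 against 7.30, Lum 11.21 against 5.21). The other measured markers of the list were higher in the fibroblast line (Col1a1 12.23 against 9.09, Thy1 11.80 against 9.61). In RNA from a whole culture, fewer cells of a type and less RNA per cell cannot be told apart. The fibroblast arrays were brighter than the rest, with maxima of up to 51274 against 14806 to 19196.

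At their brightest probes, 29 of the 55 members had a mean level of 13 or more, and the spread across lines was small. Their median SD over the 13 lines was 0.18, against 0.41 for all genes tested, and 39 of 55 had an SD under 0.25, as did 23.4% of all genes. Among the 1813 genes at least as bright as the 10th percentile of the members, the median SD was 0.40, and among the 49 members in that range it was 0.17. At a level of 13 or more it was 0.11 for the 29 members and 0.27 for the 23 other genes, and below that level 0.27 for the 26 members and 0.41 for other genes. Quantile normalization gives every array the same distribution, so a shift shared by the brightest genes, most of which are members, is removed by it and these spreads do not measure one. The median correlation of the 1485 pairs of members across the 13 lines, taken after this normalization, was 0.11. Because a shared shift is removed, this value cannot show whether the members moved as a block.

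The smallest SD at the brightest probe was that of Rpl38, a large-subunit protein known in mice for its part in translating Hox mRNAs. This probe read 13.76 to 13.88 over all 13 lines, with an SD of 0.04, while the gene's dimmer probe had an SD of 0.86. Rplp1 of the stalk read 14.03 to 14.20, Rpl37 13.83 to 14.01, Rps20 13.92 to 14.11 and Rpl41 13.97 to 14.15. All 5 sit at the top of the scale.

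**Figure D1:**
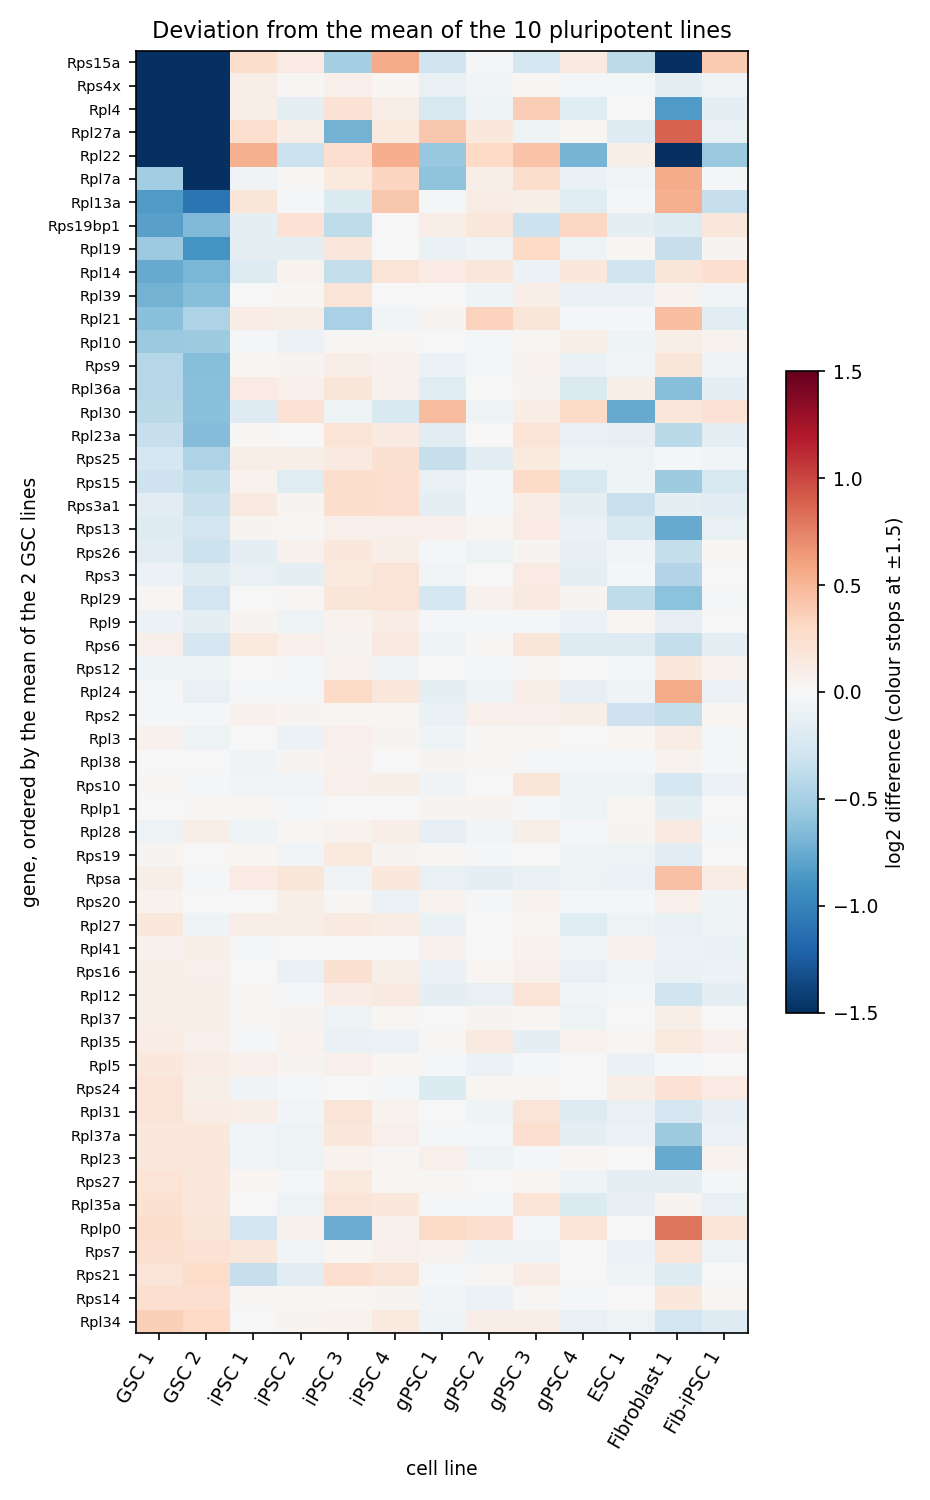
Log2 deviation of each of the 55 genes (vertical axis, ordered by the mean of the 2 GSC lines) from its mean over the 10 pluripotent lines, for each of the 13 lines (horizontal axis). Colour stops at 1.5 log2 units; the strong deviations lie in the 2 GSC columns at the top and in the fibroblast column, while most cells are near 0.

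A minority of the members stood lower in GSC. Between iPSC and GSC, 18 of 55 members (32.7%) were higher in iPSC at an adjusted p under 0.05 (limma, Benjamini-Hochberg over 10660 genes), where 19.5% of all genes were. None was lower, where 24.6% of all genes were; 2 were lower at an unadjusted p under 0.05 (limma). The median difference of the members was 0.08, beside -0.02 for all genes. The difference was at least 2-fold for 7 members (12.7%), namely Rps15a, Rps4x, Rpl4, Rpl22, Rpl27a, Rpl7a and Rpl13a, beside 11.1% of all genes. Between gPSC and GSC, 18 members were higher (32.7%; all genes 17.9%) and 2 lower (3.64%; all genes 24.4%), and 5 were at least 2-fold higher (9.09%; all genes 10.2%). Without GSC 2, the higher counts were 11 for iPSC and 9 for gPSC, and without gPSC 1, which held fibroblast or feeder markers, the gPSC count was 17. Median centring of the arrays in place of quantile normalization gave 33 higher and 1 lower member for iPSC and 32 and 0 for gPSC, with member medians of 0.41 and 0.36; the 23 other genes as bright had medians of 0.32 and 0.39. The a arrays of the GSC lines belonged to a set of 8 with median intensities of 100.1 to 102.9, the b arrays to a set at 89.48 to 93.96 and the iPSC arrays lay at 89.17 to 93.24; with b arrays alone, 12 members were higher in iPSC.

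The largest difference was that of Rps15a, a small-subunit protein encoded on chromosome 7. Its probe (ILMN_2717621) read 4.85 and 4.88 in the GSC lines and 8.02, 7.88, 7.25 and 8.31 in the iPSC lines. The gPSC lines gave 7.46, 7.74, 7.49 and 7.88, ESC 7.36 and Fib-iPSC 8.14, while the fibroblast line gave 4.73. At this probe, the only one of the gene, both source cell types were close to the detection floor and every pluripotent line was well above it. The probe was dim, with raw intensities of 92.16 to 362.4, and was detected on 25 of 26 arrays. No second probe was there to check the low readings. The difference from GSC was 3.00 ± 0.25 (SE) for iPSC, an 8.01-fold difference (adjusted p = 2.17e-05, limma), and 2.78 ± 0.25 for gPSC (adjusted p = 3.57e-05, limma). The size moved with the processing: for Rps15a it was 1.54 without background correction and 4.19 with the authors' processed values in iPSC, and 1.37 and 3.94 in gPSC.

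Rps4x, the X-linked gene for small-subunit protein S4, showed the tightest separation. Its probe (ILMN_2948086) read 11.47 and 11.51 in GSC, 13.62, 13.55, 13.61 and 13.56 in iPSC, and 13.41, 13.48, 13.55 and 13.51 in gPSC. ESC read 13.50, Fib-iPSC 13.48 and the fibroblast line 13.38. Here GSC alone was low, and the fibroblasts stood with the pluripotent lines. The difference was 2.10 ± 0.09 for iPSC (4.28-fold, adjusted p = 4.52e-07, limma) and 2.00 ± 0.09 for gPSC (adjusted p = 6.74e-07, limma).

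Rpl4, a large-subunit protein that lines the exit tunnel, read 8.91 and 8.66 in GSC. It read 10.81, 10.57, 10.93 and 10.82 in iPSC and 10.47, 10.64, 11.08 and 10.54 in gPSC. ESC was at 10.71 and Fib-iPSC at 10.57, with the fibroblast line between the groups at 9.86. The difference from GSC was 2.00 ± 0.18 for iPSC (adjusted p = 3.35e-05, limma) and 1.90 ± 0.18 for gPSC (adjusted p = 4.78e-05, limma). As the mean of its 2 detected probes, the second of which read near the floor, Rpl4 differed by 1.23 and 1.18.

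Rpl27a of the large subunit read 7.48 and 7.26 in GSC and 9.34, 9.19, 8.38 and 9.24 in iPSC. The gPSC lines read 9.50, 9.25, 9.02 and 9.11, ESC 8.90 and Fib-iPSC 8.98. The fibroblast line was the highest of all 13 at 9.98. The difference from GSC was 1.67 ± 0.26 for iPSC (adjusted p = 0.000747, limma) and 1.85 ± 0.26 for gPSC (adjusted p = 0.000442, limma). As the mean of its 2 detected probes, the second of which read near the floor, Rpl27a differed by 0.99 and 1.03.

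Rpl22, a large-subunit RNA-binding protein with a close copy, Rpl22l1, read 8.46 and 8.13 in GSC and 8.27 in the fibroblast line. The iPSC lines read 10.52, 9.67, 10.24 and 10.53, and the gPSC lines 9.42, 10.28, 10.41 and 9.29. ESC read 10.07 and Fib-iPSC 9.42. It was the most variable member within the pluripotent lines, with an SD of 0.49, although none of these lines reached down to either source cell type. The difference from GSC was 1.95 ± 0.36 for iPSC (adjusted p = 0.00208, limma) and 1.56 ± 0.36 for gPSC (adjusted p = 0.00712, limma; 0.0702 without GSC 2).

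Rpl13a and Rpl7a, both of the large subunit, completed the group. Rpl13a, which in human cells also takes part in silencing inflammatory mRNAs, read 9.84 and 9.60 in GSC and 10.49 to 11.10 in iPSC, a difference of 1.06 ± 0.18 (adjusted p = 0.00103, limma). It read 10.52 to 10.81 in gPSC and 11.23 in the fibroblast line. Rpl7a differed between the GSC lines themselves, at 11.24 and 10.11, and read 11.70 to 12.08 in iPSC and 11.15 to 12.02 in gPSC. GSC 1 thus lay above the lowest gPSC line. The difference of 1.19 ± 0.31 for iPSC (adjusted p = 0.0124, limma) fell to 0.63 without GSC 2 (adjusted p = 0.156).

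**Figure D2:**
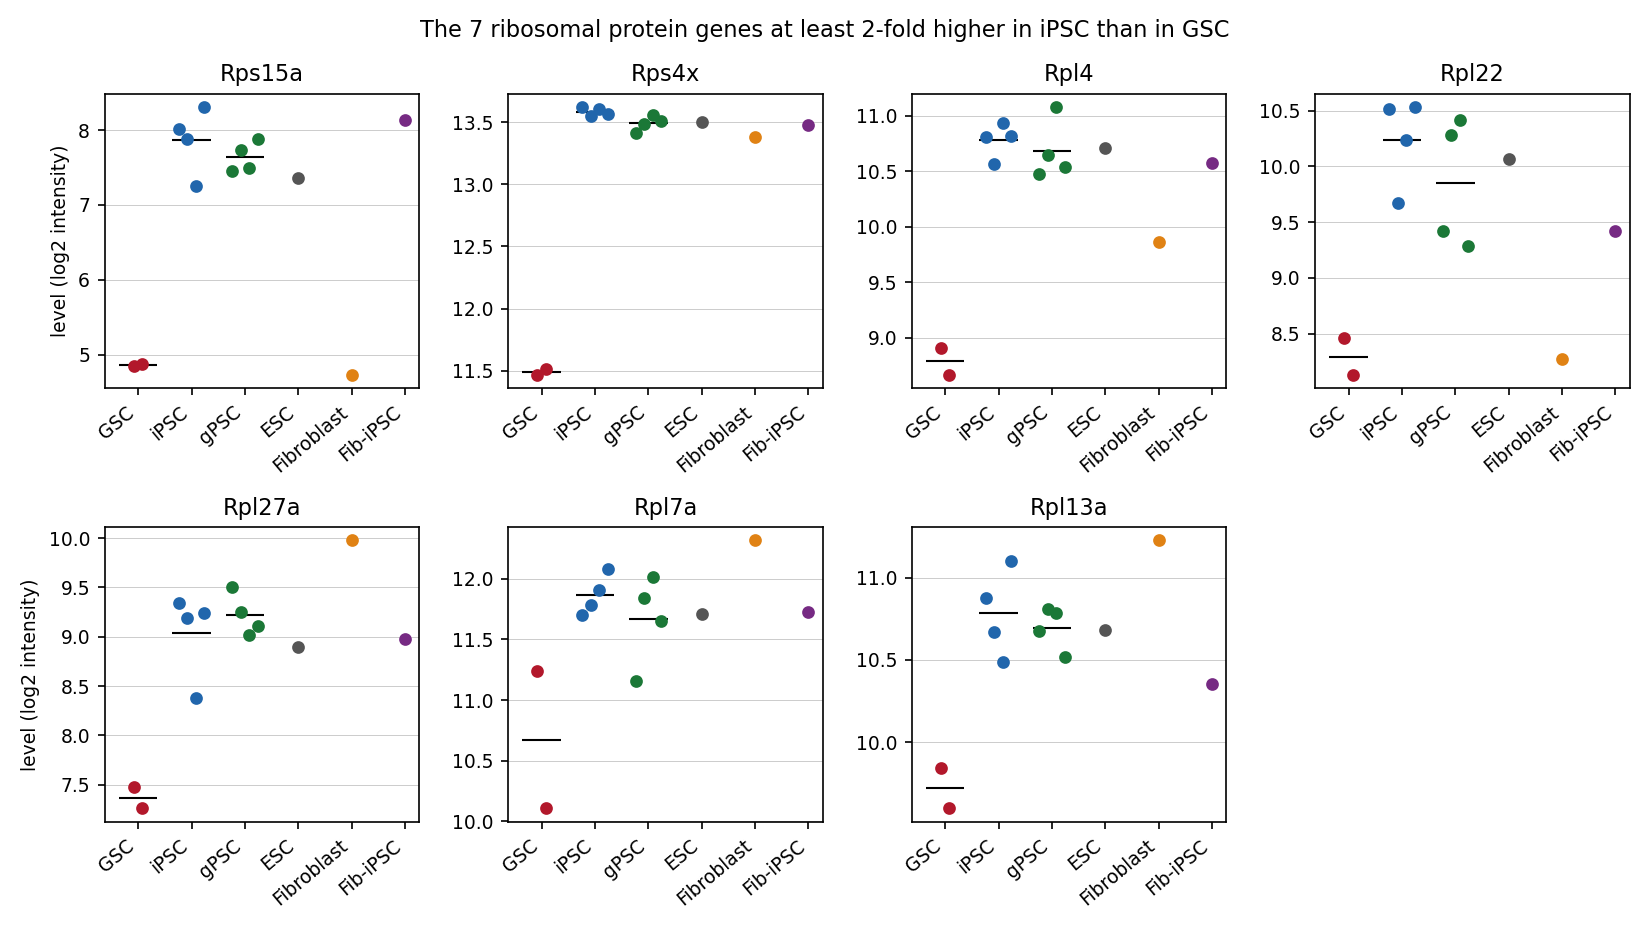
Level (vertical axis, log2 intensity) of the 7 members at least 2-fold higher in iPSC than in GSC, by group (horizontal axis); points are cell lines, each the mean of 2 arrays, and bars are group means where a group has several lines. The GSC points lie below the pluripotent ones except for Rpl7a, and the fibroblast point is low for Rps15a and Rpl22 and highest for Rpl27a, Rpl7a and Rpl13a.

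All 4 X-linked members were higher in iPSC and in gPSC than in GSC, and lower in GSC than in ESC. Beside Rps4x these are Rpl39, a small protein of the exit tunnel, Rpl10, which is needed for joining of the subunits, and Rpl36a, which lies near the tRNA exit site. Rpl39 read 12.95 and 13.03 in GSC, 13.67, 13.69, 13.86 and 13.66 in iPSC, 13.66, 13.60, 13.76 and 13.57 in gPSC, 13.56 in ESC and 13.72 in the fibroblast line. Rpl10 read 13.20 and 13.23 in GSC, 13.74, 13.66, 13.78 and 13.77 in iPSC, 13.77, 13.73, 13.78 and 13.84 in gPSC, 13.69 in ESC and 13.86 in the fibroblast line. In both genes the 2 GSC lines lay below all 11 others.

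Rpl36a read 12.12 and 11.91 in GSC, 12.66, 12.61, 12.72 and 12.60 in iPSC, 12.35, 12.54, 12.58 and 12.32 in gPSC and 12.62 in ESC. Unlike the other X-linked members, it was also low in the fibroblast line, at 11.90. The differences between iPSC and GSC were 0.73 ± 0.10 for Rpl39 (adjusted p = 0.000481), 0.52 ± 0.09 for Rpl10 (adjusted p = 0.00133) and 0.64 ± 0.12 for Rpl36a (adjusted p = 0.00183, limma). For gPSC they were 0.65, 0.57 and 0.43 (adjusted p = 0.00092, 0.000899 and 0.0141, limma; Rpl36a 0.141 without GSC 2). With b arrays only, the call of Rpl36a was lost in iPSC and in gPSC. In GSC against ESC, the calls of Rpl10, Rpl39 and Rpl36a were lost with the authors' processed values and with b arrays only. That of Rpl10 was also lost without either GSC line, that of Rpl39 without GSC 1 and that of Rpl36a without GSC 2. The Rps4x call was kept in every setting. The 372 X-linked genes tested as a whole were not mostly higher: 82 (22%) were higher and 94 (25.3%) lower in iPSC than in GSC, beside 19.5% and 24.6% of autosomal genes. Of the 51 autosomal members, 14 were higher in iPSC.

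**Figure D3:**
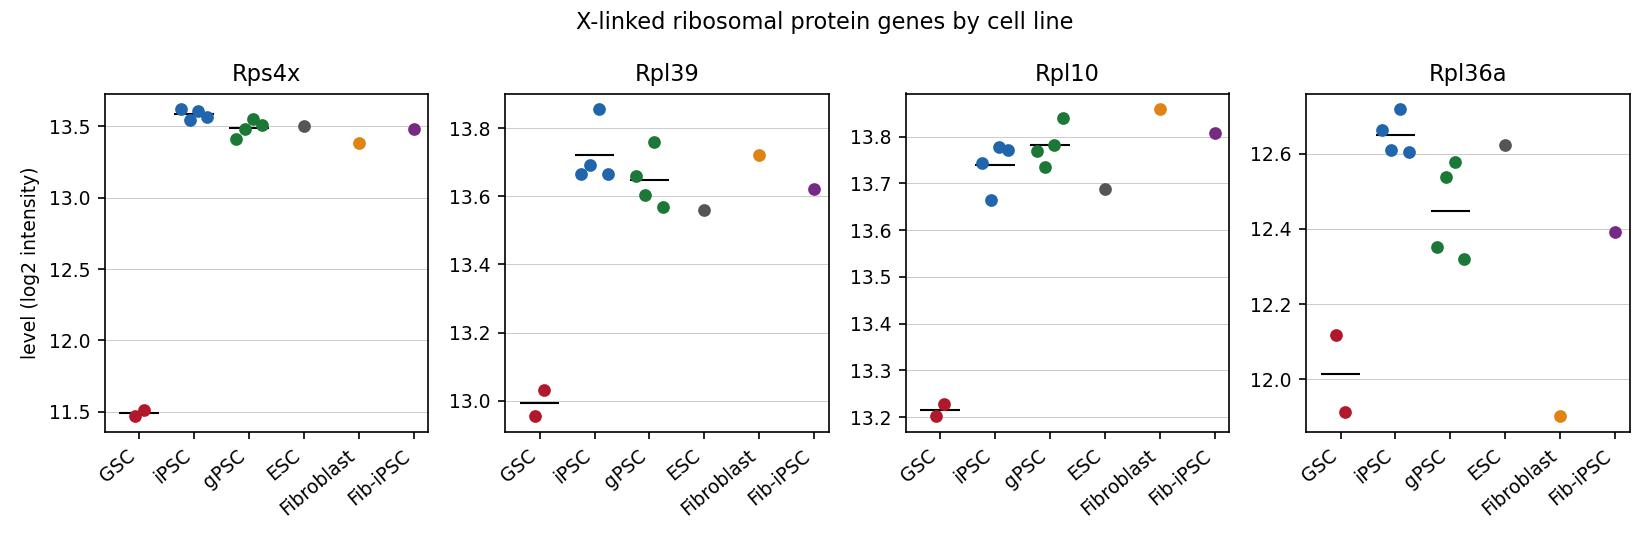
Level (vertical axis, log2 intensity, a scale of its own in each panel) of the 4 X-linked members by group (horizontal axis); points are cell lines and bars are group means. The 2 GSC points lie below all pluripotent points in every panel, and the fibroblast point is low in Rpl36a only.

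The promoters of the X-linked members and of Rps15a, Rpl4 and Rpl38 are shown because the first 6 were higher in iPSC and gPSC than in GSC and Rpl38 had the smallest SD at its brightest probe. Each line gives 80 bases before to 20 bases after the annotated start, 5′ to 3′ on the gene's strand, from RefSeq on GRCm38.p6. Capitals mark the motifs searched.
Rps4x: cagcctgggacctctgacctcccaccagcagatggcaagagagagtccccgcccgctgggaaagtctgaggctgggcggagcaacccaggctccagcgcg
Rpl39: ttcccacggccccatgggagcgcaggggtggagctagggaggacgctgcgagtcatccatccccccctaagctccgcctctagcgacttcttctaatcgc
Rpl10: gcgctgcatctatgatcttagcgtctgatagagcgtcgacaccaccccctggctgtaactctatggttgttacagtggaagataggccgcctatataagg
Rpl36a: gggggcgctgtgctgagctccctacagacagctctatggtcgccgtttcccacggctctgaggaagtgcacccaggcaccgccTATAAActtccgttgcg
Rps15a: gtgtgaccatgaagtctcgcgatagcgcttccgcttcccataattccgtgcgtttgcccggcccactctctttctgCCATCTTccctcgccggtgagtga
Rpl4: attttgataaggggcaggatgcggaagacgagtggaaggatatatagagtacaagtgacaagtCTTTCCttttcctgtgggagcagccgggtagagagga
Rpl38: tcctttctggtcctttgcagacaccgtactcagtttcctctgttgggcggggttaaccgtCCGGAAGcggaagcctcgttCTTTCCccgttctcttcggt
The windows lie at chrX:102189372-102189471 (- strand), chrX:37085203-37085302 (- strand), chrX:74270736-74270835 (+ strand), chrX:134585574-134585673 (+ strand), chr7:118116128-118116227 (- strand), chr9:64173307-64173406 (+ strand) and chr11:114668500-114668599 (+ strand), in that order.

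Motifs were counted, each for itself, in the longer window from 250 bases before to 50 after the start, for 46 of the 54 subunit genes and for 27025 genes in all. CTTTCC, letters found in pyrimidine tracts, was searched on the sense strand and stood in 16 of 46 member windows (34.8%) and 14.0% of all windows. CCGGAAG, a core bound by ETS factors, was searched on both strands and stood in 17 (37%; all 9.12%). AANATGG, a core bound by YY1, was searched on both strands and stood in 15 (32.6%; all 16.3%). TATAAA on the sense strand stood in 4 (8.7%; all 8.88%) and CACGTG, the same on both strands, in 5 (10.9%; all 7.24%). Of the 16 members with a window that were higher in iPSC than in GSC, 5 held CTTTCC, 5 CCGGAAG and 6 AANATGG, and of the 30 others 11, 12 and 9 did. A match is a run of letters, not a binding site.

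The remaining called members differed by less than 2-fold. In the large subunit, Rpl19 read 10.95 and 10.60 in GSC and 11.35 to 11.67 in iPSC (0.69 ± 0.16, adjusted p = 0.00655, limma). Rpl23a, which forms the exit port beside Rpl19, read 12.62 and 12.31 in GSC and 12.96 to 13.17 in iPSC (0.59 ± 0.14, adjusted p = 0.00762, limma). Without GSC 2 both calls were lost, at adjusted p = 0.0852 and 0.0965. In the small subunit, Rps9 read 12.45 and 12.23 in GSC and 12.90 to 12.97 in iPSC (0.59 ± 0.10, adjusted p = 0.00132, limma).

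Rps25, Rps3a1 and Rps13 differed by 0.50, 0.42 and 0.30 (adjusted p = 0.0184, 0.0166 and 0.0357, limma), and each of these calls was lost without GSC 2, that of Rps13 also without any of 5 other single lines. In gPSC, Rps13 was 0.27 higher, at adjusted p = 0.0498 (limma), a call lost without any 1 of 9 lines and under 5 other settings, and Rps25 and Rps3a1 did not pass the test, at 0.26 and 0.20. Rpl14 read 4.75 and 4.81 in GSC, where 3 of 4 arrays detected it, and 5.15 to 5.69 in iPSC; with GSC raised to the floor of its arrays the difference was 0.58. The fitted difference of Rpl14 was 0.65 (adjusted p = 0.00893, limma), a call lost without GSC 1 (adjusted p = 0.0689) and with b arrays only. Rpl21 was detected on 1 of 4 GSC arrays and was called in gPSC (0.68, adjusted p = 0.0153, limma), a call lost without either GSC line, and not in iPSC (0.46, adjusted p = 0.0684). Rpl30 was likewise called in gPSC (0.72, adjusted p = 0.00968, limma; 0.0958 without GSC 2) and not in iPSC (0.45, adjusted p = 0.0674). Rps19bp1, the member that is not a subunit, was higher by 0.67 in iPSC (adjusted p = 0.0238, limma) and 0.81 in gPSC (adjusted p = 0.0103, limma); the first of these calls was lost without either GSC line or without iPSC 4, and the second without GSC 1.

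The 2 members lower in gPSC than in GSC were Rpl34 of the large subunit and Rps14 of the small subunit, whose loss underlies the anaemia of the human 5q syndrome. Rpl34 read 12.98 and 12.92 in GSC and 12.56, 12.73, 12.73 and 12.52 in gPSC. Rps14 read 13.85 and 13.87 in GSC and 13.57, 13.52, 13.63 and 13.59 in gPSC. Neither gene overlapped between the groups. The differences were -0.32 ± 0.11 (adjusted p = 0.0341) and -0.28 ± 0.09 (adjusted p = 0.0252, limma). Both calls were lost without GSC 1 or GSC 2, that of Rpl34 also without gPSC 1 or gPSC 4 and that of Rps14 without gPSC 2. Centring arrays on their median instead of quantile normalization turned both signs, to 0.14 and 0.04.

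The 2 comparisons share the GSC lines, so their calls are not independent. Of the members higher in iPSC or gPSC, 16 were higher in both, and 11 of these were also lower in GSC than in ESC. Counted by lines, 17 members (30.9%) read lower in both GSC lines than in all 10 pluripotent lines, beside 22.8% of all genes, and 7 (12.7%) read higher in both, beside 27.1%. The 7 were Rpl5, Rpl23, Rpl34, Rpl37, Rps7, Rps14 and Rps27, of which Rpl5 binds 5S RNA.

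The calls differed with the level at which a gene was read. Of the 29 members with a mean level of at least 13, 3 were called in iPSC against GSC, while 15 of the 26 dimmer members were. The 3 were Rps4x, Rpl39 and Rpl10, which are all X-linked. The median absolute difference was 0.09 in the brighter members and 0.48 in the dimmer ones. Of all 52 genes at a level of at least 13, members included, 11.5% were called. Over all 10660 genes at any level, 19.5% were called higher and 24.6% lower in iPSC. The share over all dimmer genes was not counted.

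**Figure D4:**
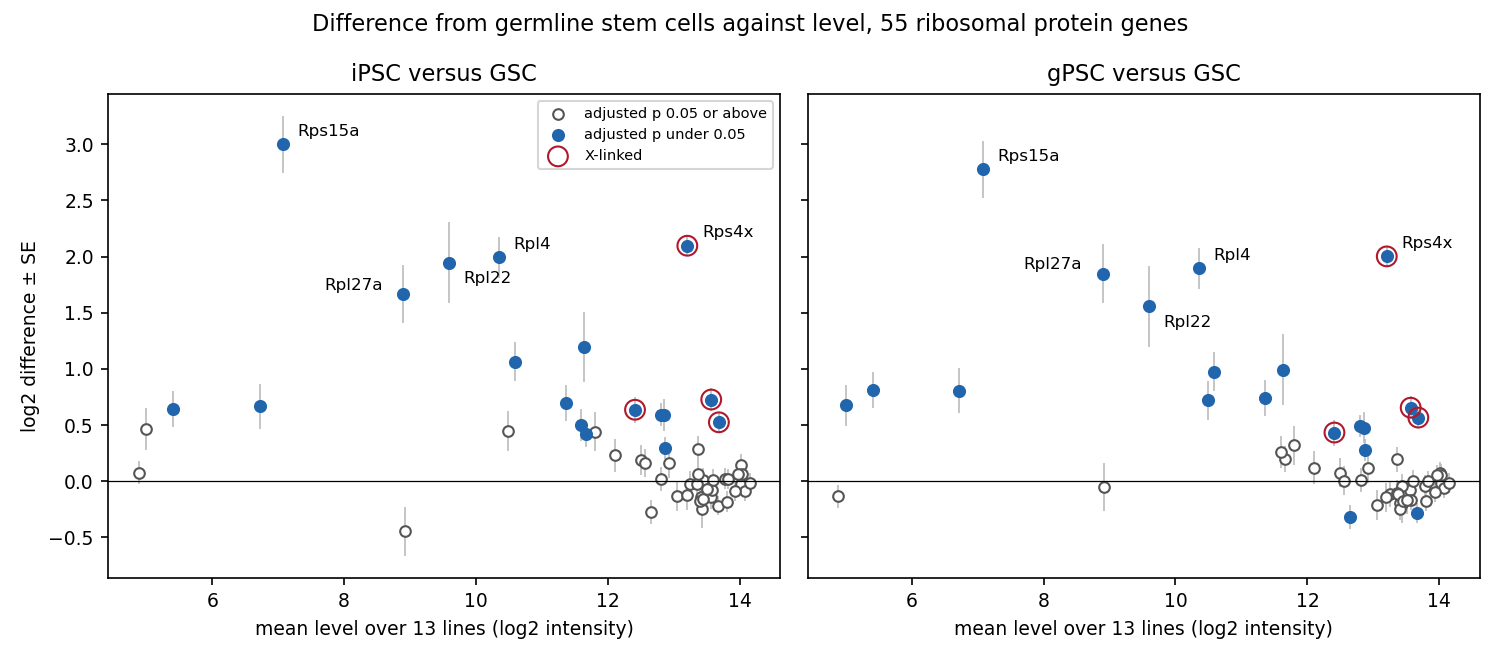
Log2 difference from GSC (vertical axis, ± SE) against mean level over 13 lines (horizontal axis, log2 intensity) for the 55 members, for iPSC on the left and gPSC on the right. Filled points passed the test, open points did not, and red rings mark the X-linked members, 3 of which stand out among the bright genes near 0.

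Probes of the same gene often gave different results. Rps15a, Rps4x, Rpl22, Rpl7a and Rpl13a each had a single probe, so their differences could not be compared between probes. Of the 14 dimmer detected probes, which the main measurement leaves out, 7 were higher in iPSC than in GSC and 0 lower, and of the brightest detected probes of the 14 genes with several probes 3 were higher. In gPSC the counts were 5 and 4. At the brightest probes of all genes, 19.5% were higher and 24.6% lower in iPSC, and 17.9% higher and 24.4% lower in gPSC. The share called over all detected probes was not counted. The dimmer probe of Rpl38 (ILMN_2594971), chosen after its values were seen, read 8.78 and 8.79 in GSC, 11.09, 11.24, 10.48 and 10.90 in iPSC, and 11.07, 11.27, 10.89 and 11.16 in gPSC. ESC read 11.01, Fib-iPSC 11.15 and the fibroblast line 10.61 there. Its difference between iPSC and GSC was 2.14 ± 0.20 (adjusted p = 3.52e-05, limma over all detected probes), against 0.02 ± 0.09 for the bright probe, whose 95% interval runs from -0.18 to 0.22. Rps24, a small-subunit protein mutated in Diamond-Blackfan anaemia, behaved alike: its dimmer probe (ILMN_2625060) read 7.66 and 6.93 in GSC and 7.78 to 8.89 in iPSC, a difference of 1.20 ± 0.31 (adjusted p = 0.0116, limma), while its bright probe differed by -0.16 (adjusted p = 0.231).

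Of the 3 dimmer probes of Rpl23, ILMN_1238227 was 0.61 higher in iPSC (adjusted p = 0.019, limma), while ILMN_2685675 and ILMN_2742807 were at 0.14 and -0.10 (adjusted p = 0.332 and 0.428) and the brightest at -0.18 (adjusted p = 0.135). The dimmer probe was called in iPSC and the brighter was not for Rpl29 (0.91, adjusted p = 0.0115, against 0.23, adjusted p = 0.23) and for Rps3 (0.38, adjusted p = 0.0467, against 0.16, adjusted p = 0.36, limma). In Rpl4, Rps9 and Rpl27a the larger difference was at the brighter probe. Both probes of Rpl4 were higher in iPSC, by 2.00 and 0.47, and both of Rps9, by 0.59 and 0.37. The second probe of Rpl4 was also near the floor, at 4.42 and 4.58 in GSC, and was detected on 22 of 26 arrays. The second probe of Rpl27a, near the floor and detected on 16 of 26 arrays, differed by 0.32 (adjusted p = 0.0736). What separates the probes of a gene was not tested.

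**Figure D5:**
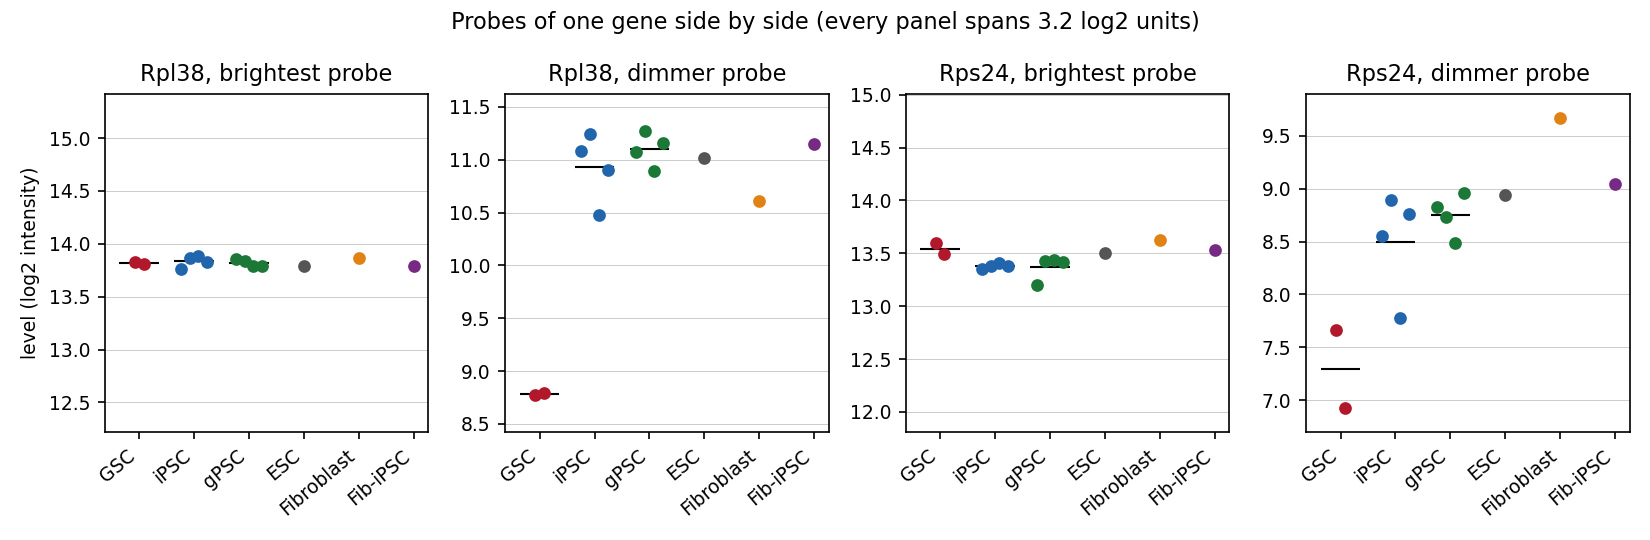
Level (vertical axis, log2 intensity; every panel spans the same number of log2 units) at the brightest and the dimmer probe of Rpl38 and of Rps24, by group (horizontal axis); points are cell lines and bars are group means. The bright probes are flat across groups and the dimmer ones are low in GSC.

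By role, the exit tunnel and exit port held 4 called members of 6 measured in both comparisons with GSC, namely Rpl4, Rpl39, Rpl19 and Rpl23a, with a median difference of 0.64 for iPSC; of all members 32.7% were higher, and of all genes 19.5% in iPSC and 17.9% in gPSC. Rpl31 and Rpl35 of the same region differed by -0.07 and -0.14 in iPSC and did not pass the test. The stalk proteins Rplp0, Rplp1 and Rpl12 did not pass in any of the 8 tested comparisons at their brightest probes, with a median of -0.03 for iPSC against GSC. The second probe of Rplp0 (ILMN_1249815) was 1.40 higher in the fibroblast line than in GSC (adjusted p = 0.00157, limma), where the brightest was at 0.58 (adjusted p = 0.158). Of the 5 measured proteins of the mRNA path and decoding site, Rps25 was called in iPSC and none in gPSC. A list of 9 genes mutated in Diamond-Blackfan anaemia had 7 measured. None of these 7 was called in any of the 8 comparisons at its brightest probe, with medians from -0.17 to 0.12. The list is a selection that does not hold Rps15a, so it does not stand for all genes of the disease. These role lists are small and carry no test of their own.

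Between the 2 germline-derived sets, no member passed the test. In iPSC against gPSC, 0 of 55 members were higher (all genes 0%) and 0 lower (all genes 0.00938%) by limma, and 2 had an unadjusted p under 0.05. The lowest p-values belonged to Rpsa, the laminin receptor protein of the small subunit (0.21, 95% interval 0.03 to 0.40), Rps3a1 (0.22, 0.01 to 0.44) and Rplp0 (-0.40, -0.80 to 0.00), all at adjusted p = 0.627. The Rpsa probe read 4.71 to 5.29 over the 13 lines, near the detection floor, and its second probe was detected on 0 of 26 arrays. For 49 of 55 members the 95% interval lay within a 1.5-fold difference in either direction. The median was 0.06, with 42 of 55 members above 0.

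No member of either set passed the test against the ESC line. In iPSC against ESC, 0 members were higher (all genes 0.0469%) and 0 lower (all genes 0.216%), with 4 at an unadjusted p under 0.05. In gPSC against ESC the counts were 0 (all genes 0.0281%) and 0 (all genes 0.253%), with 2 at an unadjusted p under 0.05 (limma). Rpl30, a large-subunit protein, read 9.80 in ESC, 10.36, 10.77, 10.49 and 10.33 in iPSC and 11.03, 10.49, 10.67 and 10.85 in gPSC. ESC was the lowest of all 13 lines there, below the GSC lines at 10.15 and 9.93, and the differences of 0.69 and 0.95 stood at adjusted p = 0.709 and 0.332 (limma). The other members with the lowest p-values were Rps3a1 (0.51) and Rps2 (0.35) in iPSC, and Rps2 (0.34) and Rpl29 (0.38) in gPSC. The member median was 0.10 for iPSC against ESC, with 46 of 55 members above 0, and 0.03 for gPSC against ESC, with 37 above 0. The ESC group is a single line, which is assumed to vary like the other groups.

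GSC stood lower than ESC for 11 of 55 members (20%; all genes 13.4%) and higher for 0 (all genes 16.4%), with 3 higher at an unadjusted p under 0.05 (limma). The largest differences were -2.50 ± 0.36 for Rps15a (adjusted p = 0.00105), -2.01 ± 0.13 for Rps4x (adjusted p = 1.45e-05), -1.92 ± 0.26 for Rpl4 (adjusted p = 0.000751), -1.77 ± 0.51 for Rpl22 (adjusted p = 0.0285) and -1.53 ± 0.37 for Rpl27a (adjusted p = 0.013, limma). These 5 were also at least 2-fold apart (9.09%; all genes 10%). The other 6 were Rpl13a, Rpl19, Rpl36a, Rpl39, Rps9 and Rpl10, at -0.96 to -0.47. Without GSC 2 the count was 4.

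The source cells differed from each other in both directions. In the fibroblast line against GSC, 12 members were higher (21.8%; all genes 20.6%) and 4 lower (7.27%; all genes 24%). Rpl27a (2.61 ± 0.37, adjusted p = 0.000478), Rps4x (1.89 ± 0.13, adjusted p = 1.09e-05), Rpl7a (1.64 ± 0.45, adjusted p = 0.0144), Rpl13a (1.51 ± 0.25, adjusted p = 0.00111) and Rpl4 (1.08 ± 0.26, adjusted p = 0.00809, limma) were at least 2-fold higher (9.09% of members; all genes 14.6%). Rpl23 of the large subunit read 13.07 in the fibroblast line and 14.00 in both GSC lines (-0.93, adjusted p = 0.000495, limma). Of the other probes of Rpl23, 1 was lower too (-0.36, adjusted p = 0.0492) and 2 were at 0.58 and 0.35 without passing the test, and the mean of the detected probes of Rpl23 was at -0.09 (adjusted p = 0.659). Rpl37a, Rpl34 and Rps13 were lower by 0.69, 0.62 and 0.51 by the same test (adjusted p = 0.0133, 0.00815 and 0.0152, limma). Rps15a and Rpl22 did not pass the test between the source cells, at -0.14 and -0.02, with 95% intervals of -0.95 to 0.68 and -1.18 to 1.13. The fibroblast arrays were on a different intensity scale: with median centring in place of quantile normalization, 52 members were higher and 0 lower, and the median of all genes moved to 0.29 and that of the members to 1.33. The direction of the 4 lower members turned, to 0.31, 0.89, 0.99 and 1.06 for Rpl23, Rpl37a, Rpl34 and Rps13.

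Reprogramming of fibroblasts is represented by 1 line on each side and has no test of its own. Fib-iPSC was at least 2-fold above the fibroblast line for 2 members (3.64%; all genes 15.6%), Rps15a by 3.41 and Rpl22 by 1.15, and 2-fold below for 0 (all genes 14.9%), with Rpl27a nearest at -1.0. Against ESC, 1 member was at least 2-fold higher in the fibroblast line (1.82%; all genes 15%), Rpl27a by 1.08, and 2 were lower (3.64%; all genes 16.4%), Rps15a by -2.63 and Rpl22 by -1.80. Fib-iPSC and ESC were within 2-fold for every member (0 higher and 0 lower; all genes 2.38% and 2.67%), the widest being Rpl30 at 0.97. Against the GSC-derived iPSC lines, the member median of Fib-iPSC was -0.07, with 41 of 55 members below 0. Fib-iPSC and the GSC-derived iPSC lines gave no call for any member (0 of 55 in each direction; all genes 0%), and 0 had an unadjusted p under 0.05 (limma). Rps3a1, Rpl13a and Rpl34 had the lowest p-values there, at -0.33, -0.43 and -0.25 (each at adjusted p = 0.725).

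Genes close to the members by function were taken from lists. Fau, whose protein is cut into the small-subunit protein S30, read 12.06 and 11.96 in GSC and 12.47 to 12.91 in iPSC, a difference of 0.65 (adjusted p = 0.00689, limma), and 0.41 in gPSC (adjusted p = 0.055). Of the 6 measured like-genes that the rule leaves out, Rpl3l, Rps27l and Rpl39l changed in both comparisons. Rpl3l, a copy of Rpl3 known from muscle, was not detected on any of 4 GSC arrays and was at least 3.57-fold higher in iPSC and at least 3.07-fold higher in gPSC (adjusted p = 2.95e-05 and 5.82e-05, limma). Rpl39l, a copy of Rpl39 known from testis, went the other way from its X-linked parent: it read 6.03 and 5.50 in GSC and 4.33 to 5.19 in iPSC, a difference of -1.03 (adjusted p = 0.00726, limma), and -1.18 in gPSC (adjusted p = 0.00384, limma), with 5 of 8 iPSC arrays and 2 of 8 gPSC arrays detecting it. Rps27l was 0.82 and 0.94 higher (adjusted p = 0.000127 and 6.01e-05, limma).

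A list of genes whose mRNAs share the pyrimidine start, most of them translation factors but also Vim and Hnrnpa1, was read in the same comparisons. Of 17 measured, 9 were higher in iPSC than in GSC and 0 lower, with a median of 0.55, and 8 were higher in gPSC with 0 lower. Of all genes 19.5% were higher and 24.6% lower in iPSC, and 17.9% and 24.4% in gPSC. Eif2s3x, the X-linked gene of an initiation factor subunit, was higher by 2.41 and 2.53 (adjusted p = 2.46e-05 and 2.04e-05, limma), reading 6.90 and 7.22 in GSC. Btf3, a subunit of the complex that meets the nascent chain at the exit tunnel, was higher by 1.17 and 1.21 (adjusted p = 2.42e-05 and 2.26e-05, limma). Npm1 and Eef1g of the same list did not pass the test in iPSC, at -0.03 and -0.07.

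Ribosome assembly genes were called in both directions. Of 35 measured factors of ribosome biogenesis and RNA polymerase I, 5 were higher and 9 lower in iPSC than in GSC, with a median of 0.15. In gPSC 8 were higher and 4 lower. Beside these counts, 19.5% of all genes were higher and 24.6% lower in iPSC, and 17.9% and 24.4% in gPSC. Polr1a, the largest subunit of RNA polymerase I, was 1.47 higher in iPSC, and Sbds, which helps release a late assembly factor from the large subunit, 1.15 higher (adjusted p = 0.00188 and 0.000708, limma). Pes1, a large-subunit assembly factor, was at -2.69 and Polr1c, a subunit shared by RNA polymerases I and III, at -1.48 (adjusted p = 0.00315 and 0.000223, limma). Of 7 measured genes of growth control, Eif4ebp1, an inhibitor of cap-dependent translation, was 1.96 higher in iPSC and Mtor 0.80 lower (adjusted p = 1.95e-05 and 0.00315, limma).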

How the data were processed

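Total RNA of 13 cell lines was hybridised to Illumina BeadChips on 26 arrays. The deposited intensity of each probe and its detection p-value come from BeadStudio 3.2, per the submitters' processing notes and the file headers. The authors also deposited a table of log2 values processed with lumi, per the submitters' processing notes, which served as an alternative. Probes were named from the platform annotation, which can be old.

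The neqc function of limma 3.58.1 in R 4.3.3 corrected the background, with control levels derived from detection p-values, added an offset of 16, applied quantile normalization and took log2. The 2 arrays of a line were averaged. Probes entered the test when 1 line or more had a detection p under 0.05 on its 2 arrays, and the probe with the highest mean stood for its gene. One mean per group was fitted over all 13 lines with limma (7 residual and 9.29 moderated degrees of freedom, two-sided), and p-values were adjusted over 10660 genes by Benjamini-Hochberg. A call is an adjusted p under 0.05. Groups of 1 line are assumed to vary like the others, and pairs of single lines were not tested by themselves. The flagged contrast of reprogramming from GSC and from fibroblasts holds such a pair on its fibroblast side. Arrays give no counts, so the number of lines limits the precision. The scripts were tested on simulated data.

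The text names, per comparison, the 5 called members with the largest difference in each direction and all at least 2-fold apart, or the 3 with the lowest p where none was called. It also names the 5 most and 5 least variable members, those not detected or not subunits, those whose detected probes differ in the sign of a called difference, the role lists, up to 4 called genes of each other list, and the widest members between single lines. The members and lists were chosen with earlier results of these data known. Alternatives covered background, normalization, offset, filter, probe choice, array set, block and single lines left out. Whether equal replicate numbers of iPSC and gPSC mark paired lines is not stated in the labels. The correlations of their deviations were -0.07, -0.07, 0.68 and -0.07, while iPSC 2 and gPSC 4, of unequal numbers, also reached 0.68. These values do not settle the pairing.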

Additional observations from a re-analysis of the deposited data

Results flagged for a closer look

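In 4 of 72 groups of 4 lines, 1 line stood apart from the other 3 by Dixon's criterion, which chance alone meets in about 1 of 20 groups. Rpl39 read 13.86 in iPSC 3 and 13.66 to 13.69 in the other iPSC lines, and Rpl27a read 8.38 in iPSC 3 and 9.19 to 9.34 in the others. Rpl19 read 11.79 in gPSC 3 and 11.40 to 11.44 in the other gPSC lines. Rps2, a small-subunit protein near the mRNA entry, read 13.96 in gPSC 1 and 14.13 to 14.15 in the others.

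The difference between reprogrammed and source cells was not the same from GSC as from fibroblasts for 11 of 55 members (limma). This is a smaller share than the 30.9% of all genes that passed this test. Of the 11 members, 10 had the higher value from GSC, a direction that was not counted over all genes. Taken as iPSC minus GSC less Fib-iPSC minus fibroblast, it was 2.67 for Rpl27a (adjusted p = 0.00414), 2.00 for Rps4x (adjusted p = 0.000121), 1.94 for Rpl13a (adjusted p = 0.00288), 1.79 for Rpl7a (adjusted p = 0.0497) and 1.29 for Rpl4 (adjusted p = 0.0217). It was 1.08 for Rpl21, 0.83 for Rpl39, 0.82 for Rps9, 0.80 for Rpl24 and 0.58 for Rpl10 (adjusted p = 0.0444, 0.0136, 0.0125, 0.0343 and 0.0325), and -1.0 for Rpl23 (adjusted p = 0.00334). The same value is fibroblast minus GSC less Fib-iPSC minus iPSC, and no member was called between Fib-iPSC and iPSC. All 11 members were called in fibroblast against GSC, Rpl23 lower and the others higher, so this is not a separate result. The fibroblast side holds 1 line each, whose spread is taken from the other groups. The fibroblast arrays were the brightest of the series. With median centring in place of quantile normalization, the member median of Fib-iPSC minus fibroblast moved from 0.05 to -0.90. The test was not repeated on that scale.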

How the results depend on the processing

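Median centring in place of quantile normalization changed most. It gave 33 members higher and 1 lower in iPSC than in GSC (median 0.41), 32 and 0 for gPSC against GSC (median 0.36), 17 lower in GSC than in ESC (median -0.39), and 52 higher and 0 lower in the fibroblast line than in GSC (median 1.33). Medians were -7e-04 for iPSC against gPSC, 0.037 for iPSC against ESC and 0.027 for Fib-iPSC against iPSC. At least 2-fold apart were 23 members between Fib-iPSC and fibroblast (median -0.90), 26 between fibroblast and ESC (median 0.97) and 1 between Fib-iPSC and ESC. Signs turned for Rpl34 (0.14) and Rps14 (0.044) in gPSC against GSC, and for Rpl37a (0.89), Rpl34 (0.99), Rps13 (1.06) and Rpl23 (0.31) in fibroblast against GSC. The cause was not tested.

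Members lower in iPSC than in GSC numbered 4 without background correction, 3 with an offset of 50, 3 without the detection filter, and 1 each with 26 arrays and line as a random block, with b arrays only and with the fibroblast arrays left out before normalization, which was chosen after seeing the data. For gPSC against GSC, 6 were lower without background correction, with an offset of 50 and without the filter, and 0 with the authors' processed values, 26 arrays and a random block, a arrays only, or only the lines compared. GSC stood higher than ESC for 6 members without background correction, with an offset of 50 and without the filter, and for 1 with only the lines compared, and lower for 6 with the authors' values and with b arrays only. The fibroblast line was below GSC for 7 without background correction and 8 with only the lines compared.

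The iPSC against GSC median was 0.16 with the authors' values, 0.19 over every probe and 0.16 with the mean of a gene's probes. For gPSC against GSC it was 0.12 over every probe, 0.13 with the mean of probes and -0.012 with b arrays only. Over every probe it was 0.079 for fibroblast against GSC and 0.080 for fibroblast against ESC, and 0.018 for the latter with the mean of probes. At least 2-fold apart were 1 member between Fib-iPSC and ESC over every probe and with b arrays only, and, between Fib-iPSC and fibroblast, 1 without background correction and 4 with the authors' values and over every probe. Rps3a1 in iPSC against gPSC turned to -0.020 with b arrays only. The causes were not tested.

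With the replicate number as a block, 15 members were higher in iPSC and 15 in gPSC than in GSC, and 0 were lower in gPSC. Whether the numbers pair the lines is not known. Leaving out 1 line at a time gave 11 to 19 higher in iPSC than in GSC (median 0.063 to 0.18), 9 to 18 higher and 0 to 2 lower in gPSC (median -0.003 to 0.060), 4 to 11 lower in GSC than in ESC, and 9 to 13 higher and 3 to 6 lower in the fibroblast line than in GSC. The lowest counts against GSC and ESC came without GSC 2. With 2 GSC lines and single ESC, fibroblast and Fib-iPSC lines, small differences were not detectable, and the brightest probes lie at the top of the scale.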
